A study of Mus musculus with 12 samples.

Results

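The let-7 and miR-98 family was followed in mHypoE-46, a mouse line of embryonic hypothalamic neurons that express neuropeptide Y and Agouti-related peptide. The 9 members were the probes mmu-let-7a, mmu-let-7b, mmu-let-7c, mmu-let-7d, mmu-let-7e, mmu-let-7f, mmu-let-7g, mmu-let-7i and mmu-miR-98 (mmu stands for mouse and is dropped below), taken by name from the 566 mouse miRNA probes of a NanoString nCounter panel. This assay counts barcoded probes on single miRNA molecules without amplification. Cultures in DMEM with 5% fetal bovine serum received PBS vehicle or 100 nM insulin and were harvested after 4 h or 24 h, which gave 4 groups of 3 libraries and 12 in all. The series set the earlier time, before insulin resistance develops in this line, against the later one. Its design text describes independent repeats of the experiment, and all values come from 1 cell line. The p-values therefore weigh differences against the spread between libraries of this line, which also differ in their lane of the instrument.

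let-7 is among the most conserved miRNA families of animals. Its members accumulate as cells differentiate and repress messages that carry matching sites, among them those of growth regulators such as Lin28, Hmga2, Myc and Ras. LIN28 in turn blocks the maturation of let-7 precursors, and in mice the Lin28 and let-7 pair is known to affect insulin and PI3K-mTOR signalling and whole-body glucose handling.

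The mature sequences, from the RefSeq table of assembly GRCm38.p6, are shown because the members differ by so few bases that the count of any single member needs care. All 9 members matched the table. Capitals mark the seed, bases 2 to 8, which directs target recognition.
let-7a: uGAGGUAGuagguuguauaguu
let-7b: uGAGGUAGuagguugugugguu
let-7c: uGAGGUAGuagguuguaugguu
let-7d: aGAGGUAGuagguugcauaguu
let-7e: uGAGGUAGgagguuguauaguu
let-7f: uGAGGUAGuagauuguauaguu
let-7g: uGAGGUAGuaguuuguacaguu
let-7i: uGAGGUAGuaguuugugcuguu
miR-98: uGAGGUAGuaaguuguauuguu

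All 9 sequences were 22 bases long and had the seed GAGGUAG. The members shared 14 positions and varied at 8, all outside the seed. Counted from 1 at the 5′ end, let-7c differs from let-7a by A19G, let-7e by U9G and let-7f by G12A. let-7b differs from let-7a by A17G and A19G, let-7d by U1A and U16C, let-7g by G12U and U18C, and miR-98 by G11A and A19U. let-7i was the farthest from let-7a, with G12U, A17G, U18C and A19U. How far the probe for one member also counts another was not tested. Of the 1679 mature mouse names in the table, 11 (0.655%) had this seed. Of the other two, miR-1961 was on the panel at 22 to 76 counts, above the background threshold in 0 libraries, and was not tested. let-7k was not among the panel's probes.

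The members come from several transcripts. let-7a, let-7f and let-7d have hairpins together on chromosome 13, let-7b and a let-7c hairpin lie together on chromosome 15, and a let-7f hairpin and miR-98 lie together on chromosome X. Other hairpins lie beside members of the miR-99, miR-100 and miR-125 families. A let-7c hairpin neighbours Mir99a on chromosome 16, a let-7a hairpin neighbours Mir100 and Mir125b-1 on chromosome 9, and let-7e neighbours Mir125a on chromosome 17. let-7g lies on chromosome 9 near Mir135a-1, and let-7i on chromosome 10 has no miRNA neighbour within 100 kb on its strand. Mature let-7a, let-7c and let-7f can thus come from more than 1 locus. The motif GGAG, which LIN28 is known to bind in precursor loops, was searched between the arms of the hairpins in the sense direction. It was present in 8 of 11 family hairpins for which both arms were in the table, and absent from let-7b, the second let-7c hairpin and miR-98. Among all 644 hairpins with both arms, 52 (8.07%) had it.

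The libraries held 142158 to 379809 mouse miRNA counts each. The background threshold was the mean plus 2 SD of a library's negative control probes, and the 195 miRNAs above it in 3 or more of the 12 libraries were tested. All 9 members passed, and did so in all 12 libraries. The threshold was 38.9 to 124 counts, and the member closest to it, miR-98, was still 4.89 times above it in its lowest library. Lanes 1 to 6 of the instrument held the 4 h libraries and lanes 7 to 12 the 24 h libraries, so time and block of lanes cannot be told apart. Within each block vehicle and insulin alternated, so that the replicate 1 libraries of 4 h lay in lanes 1 and 2. miR-9, an abundant neuronal miRNA, was above threshold in all 12 libraries at 879 to 1916 counts, whereas miR-124, the most typical miRNA of mature neurons, was in none. Of 9 neuronal markers on the panel, 6 were tested.

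The family was a large part of the repertoire. Its summed count was 16254 to 67770 per library, or 11.4% to 18.3% of all mouse miRNA counts. Values below are counts per 1000000 (CPM) after TMM scaling, which aligns libraries on the bulk of miRNAs that differ little. Over the 12 libraries let-7c was highest at 53340 CPM ± 18075 (SD, n = 12). let-7b at 29082 ± 5896, let-7a at 28543 ± 11741 and let-7d at 25456 ± 8727 formed a second tier. let-7g at 12012 ± 3989, let-7f at 11330 ± 3703 and let-7e at 9378 ± 2968 followed. let-7i at 5971 ± 1146 and miR-98 at 4052 ± 1244 were lowest. Probes were not calibrated against each other, so the order is one of counts per probe.

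Neighbours in this order were not all separable. let-7c exceeded let-7b in 10 of 12 libraries, but let-7b exceeded let-7a in 5 and let-7a exceeded let-7d in 7. let-7d exceeded let-7g in 12 of 12. let-7g exceeded let-7f in 7, let-7f exceeded let-7e in 9, let-7e exceeded let-7i in 11 and let-7i exceeded miR-98 in 10. The second tier and the pair of let-7g and let-7f therefore had no fixed internal order.

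**Figure D1:**
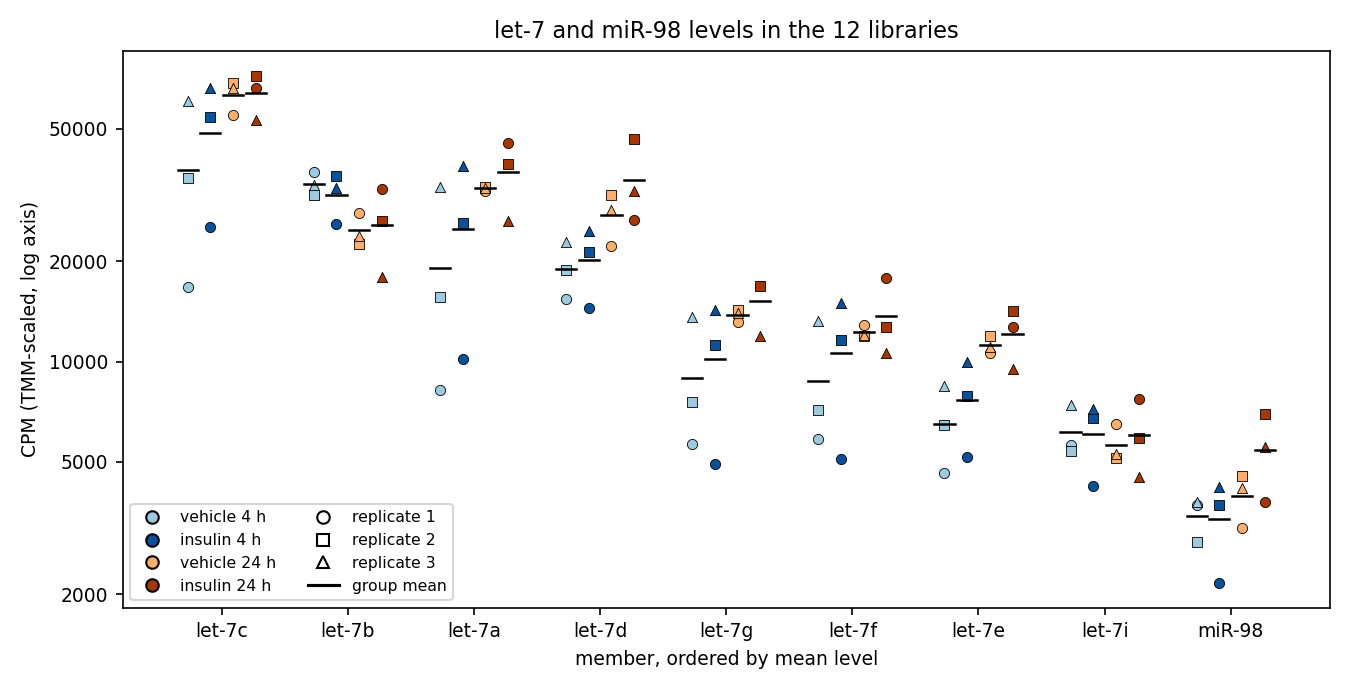
CPM of each member (log axis) in the 12 libraries, with points for libraries by group and bars for the group means. let-7c lies highest and miR-98 lowest, and the 4 h libraries of let-7a spread from 8239 to 38771 CPM.

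The widest member was let-7a, the form shared by nearly all animals. Its CPM was 8239, 15572 and 33456 in the vehicle libraries at 4 h and 10214, 26040 and 38771 in the insulin libraries at 4 h, each in the order of replicates 1, 2 and 3. At 24 h it was 32571, 33429 and 33240 with vehicle and 45447, 39142 and 26399 with insulin. In both 4 h groups the replicate 1 library was low and the replicate 3 library high, the 24 h vehicle libraries were nearly equal, and the groups overlapped. The highest library was 5.52 times the lowest.

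let-7c, 1 base away from let-7a, spread over 4.30-fold. It stood at 16731, 35549 and 60710 CPM with vehicle at 4 h and at 25269, 54169 and 66357 with insulin at 4 h. At 24 h it stood at 54843, 68798 and 66284 with vehicle and at 66382, 71936 and 53047 with insulin. Again the replicate 1 libraries of 4 h were the lowest, and the treatments overlapped at both times.

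let-7b, although it shares all but 1 base with let-7c, varied less. It was at 36987, 31526 and 33927 CPM with vehicle at 4 h and at 25863, 35942 and 33143 with insulin at 4 h. At 24 h it was at 27908, 22535 and 23863 with vehicle and at 32930, 26367 and 17999 with insulin. Its highest library was the vehicle replicate 1 of 4 h, where let-7a and let-7c had their lowest values, and its whole range was 2.05-fold.

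let-7d, the member with a different first base, was at 15440, 18792 and 22796 CPM with vehicle at 4 h and at 14477, 21364 and 24668 with insulin at 4 h. At 24 h it was at 22284, 31616 and 28462 with vehicle and at 26641, 46427 and 32506 with insulin. Of the 24 h libraries, the vehicle replicate 1 lay inside the range of 4 h. let-7e, which lies beside Mir125a, was at 4626, 6445 and 8472 CPM with vehicle and at 5177, 7901 and 9985 with insulin at 4 h. At 24 h it was at 10579, 11944 and 11041 with vehicle and at 12711, 14148 and 9502 with insulin, so that only the last of these lay inside the range of 4 h.

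miR-98, whose hairpin lies beside let-7f-2, was at 3702, 2873 and 3777 CPM with vehicle at 4 h and at 2171, 3717 and 4208 with insulin at 4 h. At 24 h it was at 3165, 4542 and 4167 with vehicle and at 3798, 6952 and 5549 with insulin. The 2 highest values were insulin libraries of 24 h, but the third insulin library lay among the vehicle ones. let-7f ranged from 5092 to 17764 CPM, let-7g from 4922 to 16836 and let-7i from 4223 to 7729. let-7i had the narrowest range of the family, 1.83-fold. The members' median SD within groups was 0.379 on the log2 scale, against 0.275 for all tested miRNAs.

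The family's sum moved with lane. In lanes 1 to 6 it was 102854, 97407, 130877, 178786, 197361 and 213652 CPM. In lanes 7 to 12 it was 183817, 230239, 204183, 240365, 198370 and 172052 CPM. From lane 2 on the sum climbed at each lane of the 4 h block and then showed no such order in the 24 h block. The group means were 143697 ± 48541 CPM with vehicle and 163282 ± 59653 with insulin at 4 h (SD, n = 3 each). At 24 h they were 195456 ± 10491 with vehicle and 214219 ± 36867 with insulin. The SDs at 4 h exceeded the distance between the treatments.

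The ratio of let-7a to let-7b, which needs no scaling between lanes, followed the lanes more closely still. It was 0.223, 0.395, 0.494, 0.724, 0.986 and 1.17 in lanes 1 to 6, a rise at every step. It was 1.17, 1.38, 1.48, 1.48, 1.39 and 1.47 in lanes 7 to 12. Since an insulin library followed each vehicle library by 1 lane, lane and treatment partly move together at 4 h. Lane and the replicate numbers of the cultures run together here and cannot be told apart.

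**Figure D2:**
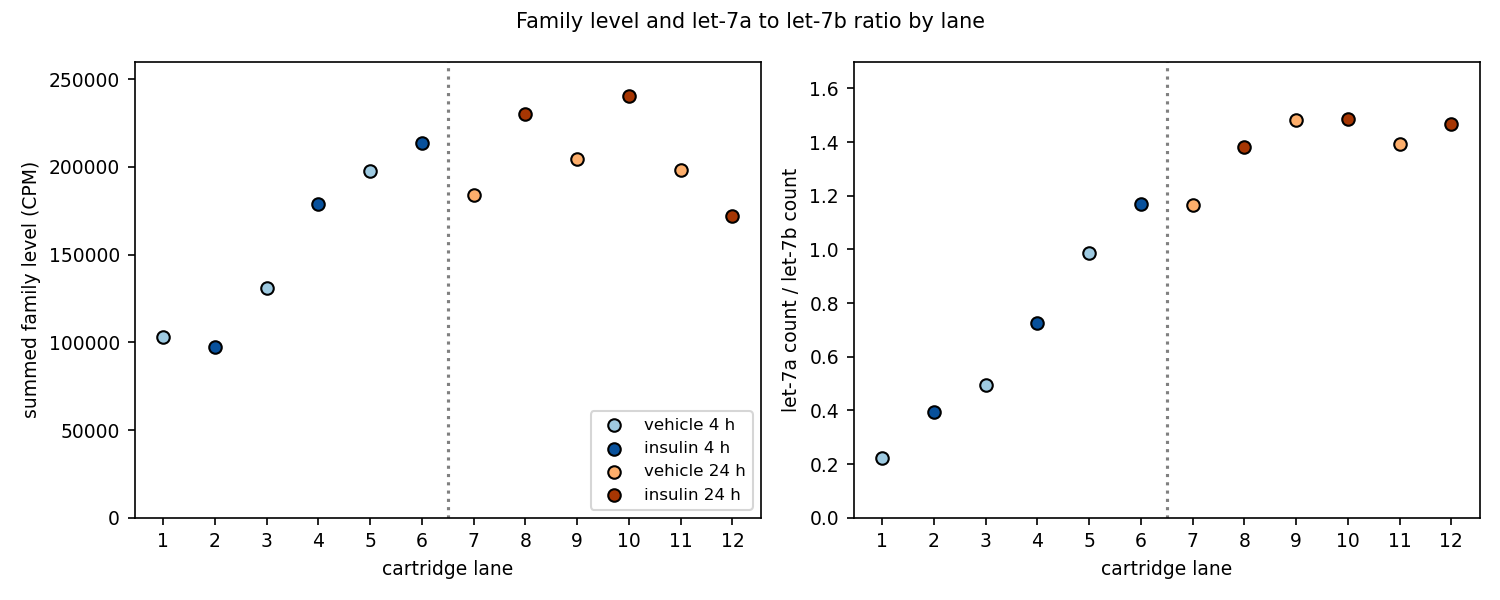
Summed family CPM and the let-7a to let-7b count ratio by lane of the instrument, with lanes 1 to 6 at 4 h and lanes 7 to 12 at 24 h. The ratio climbs from 0.223 in lane 1 to 1.17 in lane 6 and lies between 1.17 and 1.48 after that.

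For let-7a, let-7c, let-7d, let-7e, let-7f and let-7g, lanes 1 and 2 held the 2 lowest CPM values of the 12 libraries. These were 6 of 9 members. Over all tested miRNAs, 23 of 195 (11.8%) had this pattern. let-7b, let-7i and miR-98 did not have it. The pattern was noticed in these libraries and has no test.

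The make-up of the family differed between the times in the same way. let-7b was the top member in both replicate 1 libraries of 4 h and let-7c in the other 10. let-7b made up 15.5% to 36.0% of the family count at 4 h and 10.5% to 15.2% at 24 h. let-7e made up 4.29% to 5.31% at 4 h and 5.52% to 5.89% at 24 h. let-7g made up 5.05% to 6.88% at 4 h and 6.93% to 7.31% at 24 h. For these 3 members the 6 libraries of one time did not overlap the 6 of the other, let-7b being lower and let-7e and let-7g higher at 24 h. The other 6 members overlapped. When every tested miRNA was expressed relative to the family count in the same manner, 25 of 195 (12.8%) did not overlap. Members are part of that count and other miRNAs are not, so the rates are not strictly alike. Shares also depend on each other, and in CPM all 9 members overlapped.

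**Figure D3:**
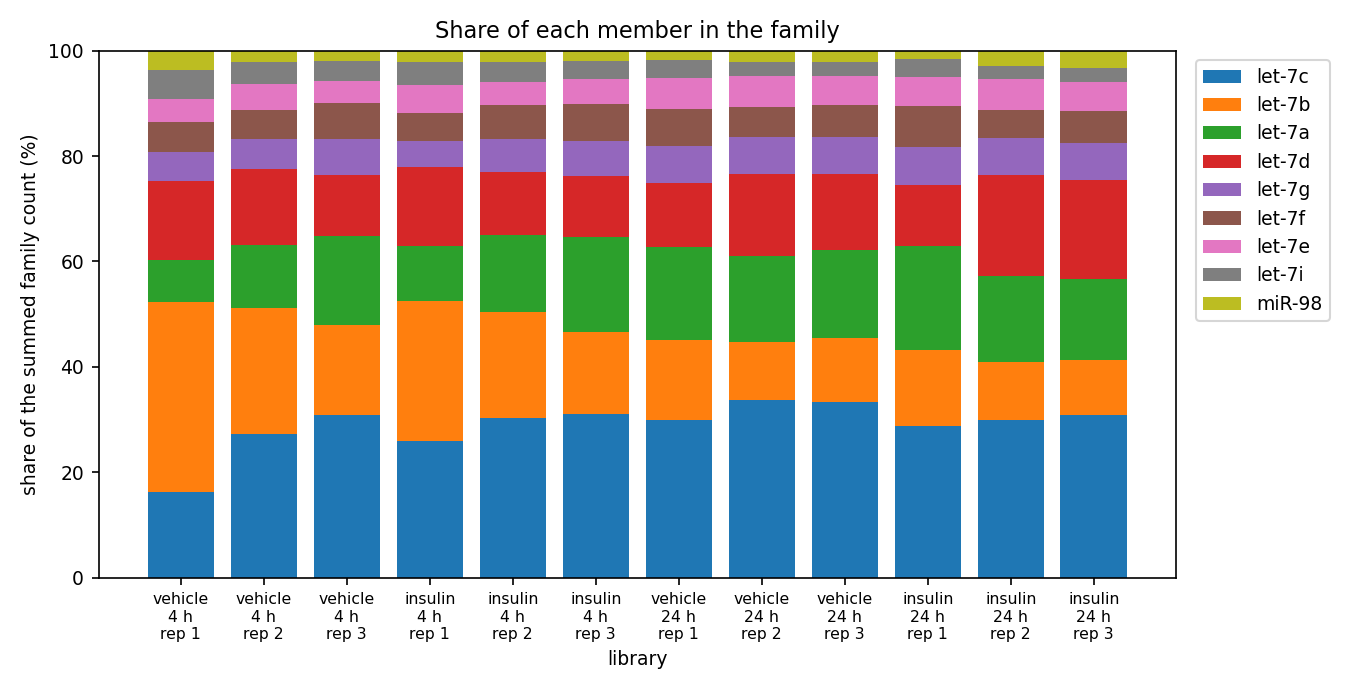
Share of each member in the summed family count (%) in the 12 libraries. let-7b takes 36.0% of the vehicle replicate 1 library of 4 h and at most 15.2% of any library of 24 h.

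The effect of insulin at 4 h was the first comparison the design implies. No member was called: 0 of 9 passed an adjusted p of 0.05 (edgeR quasi-likelihood test, Benjamini-Hochberg over 195 miRNAs), as did 0 of all 195 (0%). At an unadjusted p under 0.05 there were 0 members and 3 miRNAs. The largest log2 difference, insulin minus vehicle, was 0.39 (SE 0.46) for let-7a, with group means of 19089 CPM ± 12971 with vehicle and 25008 ± 14307 with insulin (SD, n = 3 each). let-7c was at 0.37 (SE 0.39), and the lowest value was -0.11 (SE 0.23) for let-7b. The members' median was 0.18 with 6 of 9 above 0, beside a median of 0.0096 and 99 of 195 above 0 over all tested miRNAs. For 6 of 9 members the 95% interval excluded a 2-fold difference in either direction, and it did not for let-7a, let-7c and let-7f. The intervals rest on a spread shared by all 4 groups, although several members spread more at 4 h. let-7g had SDs of 4133 CPM with vehicle and 4771 with insulin at 4 h, against 584 and 2827 at 24 h. Exclusions at 4 h thus depend partly on the 24 h libraries. The interval of let-7a ran from -0.59 to 1.37. Without the insulin replicate 3 the members' median fell below 0, to -0.085, and without the vehicle replicate 3 it was 0.47. With lane as a covariate it was 0.028. Within same-numbered libraries, let-7a, let-7c and let-7e were higher with insulin in 3 of 3 pairs, as were 35 of 195 miRNAs (17.9%), and the insulin library lay 1 lane later in each pair. The smallest p that an exact two-sided test over 3 pairs allows is 0.25. With a block for each pair, added after seeing the data, let-7c was at 0.44 and let-7a at 0.42 (adjusted p = 0.529 for each by edgeR). Their unadjusted p was 0.017 and 0.028 in that fit, where 16 of 195 miRNAs were under 0.05 and 0 were called.

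The effect of insulin at 24 h was no more detectable. Again 0 of 9 members and 0 of 195 miRNAs (0%) were called by edgeR, with 0 members and 4 miRNAs at an unadjusted p under 0.05. All 9 members had differences above 0, with a median of 0.14, but so did 127 of 195 miRNAs (65.1%), whose median was 0.061. miR-98 had the largest log2 difference, 0.46 (SE 0.26, adjusted p = 0.962), from 3958 CPM ± 712 with vehicle to 5433 ± 1580 with insulin (SD, n = 3 each), and its interval ran from -0.11 to 1.02. let-7d came next at 0.36 (SE 0.26), and let-7c was lowest at 0.011 (SE 0.39). For 7 of 9 members the interval, again from the spread shared by all groups, excluded a 2-fold difference, the exceptions being let-7a and miR-98. The direction rested on scaling: with housekeeping mRNAs as the reference, 1 of 9 members was above 0 and the members' median was -0.23, while the median of all tested miRNAs was -0.33. Within same-numbered libraries, which deviated together at this time, let-7d and miR-98 were higher with insulin in 3 of 3 pairs, as were 29 of 195 miRNAs (14.9%). With a block for each pair, let-7d was at 0.33 and miR-98 at 0.43 (adjusted p = 0.770 for each by edgeR). Their unadjusted p was 0.040 and 0.032 in that fit, where 0 of 195 miRNAs were called and 11 had an unadjusted p under 0.05. Without the insulin replicate 1 the members' median was -0.013.

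The difference between the insulin responses at the 2 times was tested directly. For the 24 h response minus the 4 h response, 0 of 9 members and 0 of 195 miRNAs (0%) were called by edgeR, and 0 miRNAs had an unadjusted p under 0.05. The values ran from -0.36 (SE 0.55) for let-7c to 0.50 (SE 0.37) for miR-98, and 4 of 9 lay above 0. The members' intervals were wide even with the spread shared by all groups. Only 3 of 9 excluded a 2-fold difference, those of let-7b, let-7e and let-7i. The interval of let-7a ran from -1.61 to 1.16 and that of let-7b from -0.53 to 0.86.

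**Figure D4:**
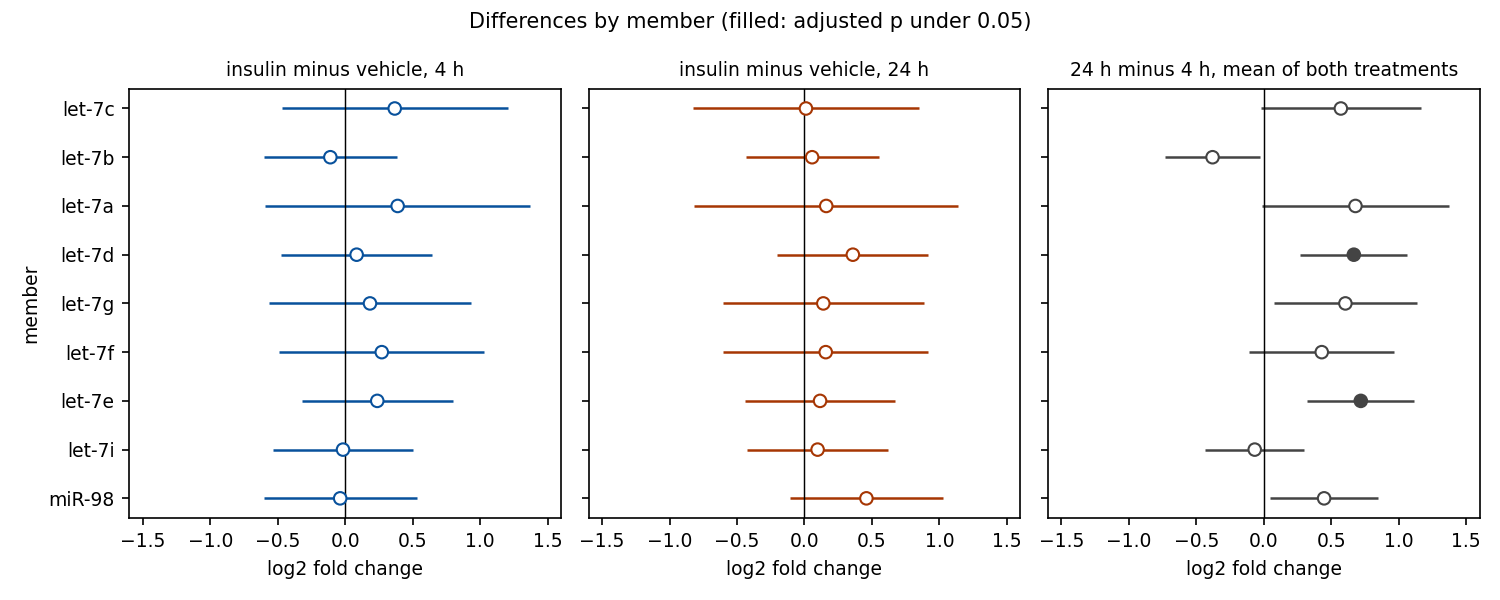
Log2 difference of each member with its 95% interval for insulin minus vehicle at 4 h and at 24 h and for 24 h minus 4 h averaged over treatments, with filled points where the adjusted p was under 0.05. Every insulin interval includes 0, and only let-7d and let-7e are filled, both for 24 h minus 4 h.

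The comparison of 24 h minus 4 h gave larger member medians than insulin, but in it time and block of lanes cannot be told apart. In vehicle cultures 7 of 9 members were above 0, with a median of 0.53, beside 0.049 over all tested miRNAs. By edgeR 0 of 9 members and 0 of 195 miRNAs (0%) were called, although 1 member, let-7e, and 31 miRNAs had an unadjusted p under 0.05. let-7e was at 6514 CPM ± 1924 at 4 h and 11188 ± 694 at 24 h (SD, n = 3 each), a log2 difference of 0.78 (SE 0.26, adjusted p = 0.151). let-7a was at 0.79 (SE 0.46), and let-7b was lowest at -0.46 (SE 0.23). In insulin cultures 0 of 9 members were called, against 7 of 195 miRNAs (3.59%). let-7d was at 20169 CPM ± 5199 at 4 h and 35192 ± 10163 at 24 h, a log2 difference of 0.80 (SE 0.26, adjusted p = 0.0955). miR-98 was at 0.69 (SE 0.27, adjusted p = 0.167) and let-7b again lowest, at -0.30 (SE 0.23). The 2 time comparisons use different libraries, and each placed let-7b and let-7i alone below 0.

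Averaged over vehicle and insulin, let-7d and let-7e were higher in the 24 h libraries than in the 4 h ones. These were 2 of 9 members called by edgeR, against 30 of 195 miRNAs (15.4%), so the members' share was near that of all miRNAs. let-7e was higher by a log2 difference of 0.72 (SE 0.19, 95% interval 0.32 to 1.12, adjusted p = 0.0199). let-7d was higher by 0.67 (SE 0.19, 95% interval 0.27 to 1.06, adjusted p = 0.0278). Of the members that were not called, let-7a was at 0.68 (SE 0.33), let-7g at 0.60 (SE 0.25) and let-7c at 0.57 (SE 0.28). miR-98 was at 0.45 (SE 0.19) and let-7f at 0.43 (SE 0.25), while let-7b was at -0.38 (SE 0.16, adjusted p = 0.134) and let-7i at -0.068 (SE 0.17). The members' median was 0.57, beside 0.040 over all tested miRNAs, and 7 of 9 lay above 0, beside 110 of 195.

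Both calls were lost under several settings. In CPM all 9 members overlapped between the 6 libraries of 4 h and the 6 of 24 h, while 16 of 195 miRNAs (8.21%) did not. Without both replicate 1 libraries of 4 h, let-7d was at 0.44 (adjusted p = 0.0986) and let-7e at 0.45 (adjusted p = 0.0603), and 19 miRNAs were called in all, by edgeR. With lane number as a linear covariate, let-7d was at -0.065 and let-7e at 0.20 (adjusted p = 0.972 for each by edgeR), and 8 of 9 members lay below 0. The 4 h libraries all lay in earlier lanes than the 24 h ones, so this fit cannot separate lane from time. No conclusion about either is drawn from it. When single libraries were left out the differences stayed above 0, at 0.53 to 0.75 for let-7d and 0.56 to 0.84 for let-7e, but the calls did not all hold. Both were lost without the vehicle replicate 1 of 4 h (adjusted p 0.0683 for let-7d and 0.0514 for let-7e), the vehicle replicate 2 (0.0774 and 0.0592) or replicate 3 (0.0700 and 0.0505) of 24 h, or the insulin replicate 2 of 24 h (0.0795 and 0.0587). let-7d alone was lost without the insulin replicate 1 (0.0540), the insulin replicate 2 (0.0653) or the vehicle replicate 2 of 4 h (0.0643). With housekeeping scaling, which moved the median of all tested miRNAs to -0.33, let-7d was at 0.27 (adjusted p = 0.339) and let-7e at 0.36 (adjusted p = 0.293) by edgeR. With positive-control scaling the values were 0.56 (adjusted p = 0.124) and 0.58 (adjusted p = 0.0786). With no filter they were 0.64 (adjusted p = 0.163) and 0.68 (adjusted p = 0.137) by edgeR. Housekeeping scaling thus ended the calls with clearly smaller differences. Positive-control scaling and no filter ended them with differences closer to those of the main fit. let-7b was called as lower at 24 h with scaling on the 100 most abundant miRNAs (-0.51, adjusted p = 0.0123), a mean count of at least 100 (-0.50, 0.00641), DESeq2 (-0.41, 0.0391) and limma on the authors' signals (-0.51, 0.0224). By edgeR it was also called without the insulin replicate 1 of 24 h (-0.49, adjusted p = 0.0338). The signs of 7 members above 0 and of let-7b and let-7i below it were the same under the 5 scalings tried.

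Other measures were followed over the same times. The 6 blood and myeloid markers summed to 1474 to 5520 CPM at 4 h and 899 to 1473 at 24 h. This came with miR-223, a myeloid miRNA, above threshold in all 6 libraries of 4 h but in 2 of the 6 of 24 h, while the other 5 markers were below it in all 12 libraries. The 5 mesenchymal markers summed to 5890 to 7764 CPM at 4 h and 4682 to 6007 at 24 h, which overlapped. Of these, miR-143 and miR-145 were above threshold in all 12 libraries and miR-199a-3p, miR-199a-5p and miR-214 in 0. The 2 endothelial markers summed to 415 to 633 CPM at 4 h and 361 to 450 at 24 h, also with overlap. miR-126-3p was above threshold in 4 libraries of 4 h and 0 of 24 h, and miR-126-5p in 0 of all 12. The threshold was 96.9 to 124 counts in replicates 2 and 3 of both 24 h groups, against 50.8 to 89.0 at 4 h. miR-126-3p had at most 93 counts in any library. The numbers of libraries above threshold, also for miR-223, therefore depend on background as well as level. The 9 neuronal markers summed to 8317 to 10212 CPM at 4 h and 8672 to 10273 at 24 h, which overlapped. Most of this sum was miR-9, with a mean of 6873 CPM. miR-124, miR-137 and miR-138 were above threshold in 0 libraries and the remaining markers in 3 to 10. The remaining lists also overlapped, each with a higher median at 24 h. The 3 glial markers (1 tested) summed to 784 to 1293 CPM at 4 h and 925 to 1379 at 24 h. The 4 muscle markers (2 tested) summed to 961 to 1500 and 892 to 1753, and the 7 epithelial markers (2 tested) to 1908 to 2942 and 2049 to 2639. miR-122, a liver miRNA that was not tested, was at 149 to 270 and 192 to 336 CPM. The geometric mean of the housekeeping mRNA counts ranged from 2962 to 3965 at 4 h and from 2331 to 9643 at 24 h. Their part in the time differences of the family was not tested. In bulk RNA, fewer cells with a miRNA and less of it per cell cannot be told apart.

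The members did not vary as 1 unit. With group means removed, let-7a correlated with let-7g at r = 0.98, with let-7c and let-7f at 0.97 and with let-7e at 0.96 over the 12 libraries. let-7d and miR-98 correlated at r = 0.86. let-7i correlated with let-7f at 0.90, with let-7b at 0.85, with let-7g at 0.81 and with let-7a at 0.80. let-7b correlated with let-7c at 0.23 although they differ at 1 base and have hairpins side by side, with miR-98 at -0.011 and with let-7d at -0.027. Among the 4 pairs of members that differ at 1 base, r ran from 0.23 to 0.97 with a median of 0.96. All points share their library, lane and scaling, and the correlations are descriptions with no test.

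**Figure D5:**
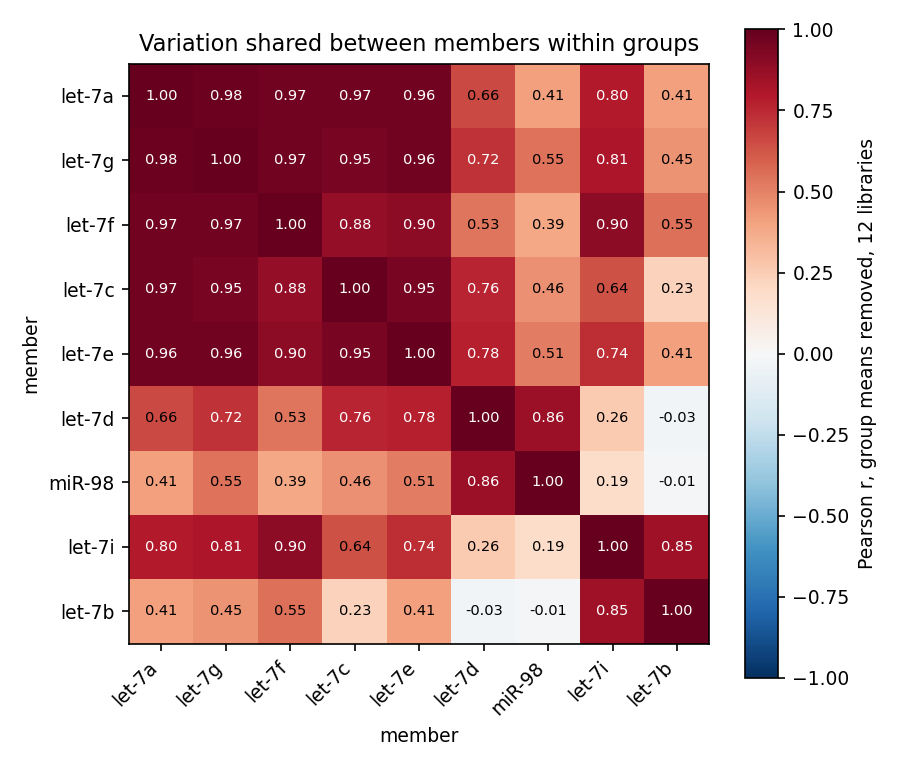
Pearson r between members over the 12 libraries on log2 CPM with group means removed. let-7a, let-7g, let-7f, let-7c and let-7e form a block at 0.88 or more, while let-7b stands at 0.55 or less with each of them.

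Of the miRNAs that lie beside family hairpins, those of the miR-99, miR-100 and miR-125 families ranged less than the members did. miR-99a, processed from the transcript that carries a let-7c hairpin, ranged 1.34-fold over the 12 libraries, against 4.30-fold for let-7c. miR-125b-5p ranged 1.66-fold and miR-100 1.47-fold, against 5.52-fold for let-7a. miR-99b ranged 1.76-fold and miR-125a-5p 1.85-fold, against 3.06-fold for let-7e. Across these pairs r with the member ran from 0.26 to 0.67 with group means removed and was highest for miR-125b-5p with let-7a. Without removing group means it ran from 0.0026 to 0.67 and was highest for miR-125a-5p with let-7e. By edgeR 0 of these 5 miRNAs were called in any of the 6 comparisons. From 4 h to 24 h miR-125a-5p was at 0.32 (SE 0.14, adjusted p = 0.134) and the other 4 lay between -0.079 and 0.040. miR-135a, beside let-7g, was added after its values were seen. It ranged 2.25-fold, from 499 to 1122 CPM, against 3.42-fold for let-7g. Its lowest values were in lanes 1 and 2, and it correlated with let-7g at r = 0.85 with group means removed. From 4 h to 24 h it was at 0.39 (SE 0.17, adjusted p = 0.134 by edgeR). let-7a and let-7c each have a second locus, so their neighbours describe only part of their sources.

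The tested miRNAs outside the family most like its sum were, over the 12 libraries, miR-23a (r = 0.977 on log2 CPM), miR-365 (0.959), miR-93 (0.946), miR-16 (0.945) and miR-19a (0.944). With group means removed the order was miR-365 (0.978), miR-23a (0.967), miR-143 (0.948), the joint probe for miR-106a and miR-17 (0.947) and miR-19a (0.945). The libraries farthest from the median family level were both replicate 1 libraries of 4 h. Without them, over 10 libraries and with group means kept, r was 0.963 for miR-23a, 0.935 for miR-365 and 0.918 for miR-19a. It was 0.909 for miR-93, 0.860 for miR-16, 0.795 for miR-106a and miR-17, and 0.612 for miR-143. These likenesses share library, lane and scaling with the family and are given with no test.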

How the data were processed

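The authors deposited unscaled counts from a NanoString mouse miRNA code set, per the file headers. They were handled as estimated counts, since instrument rows of the deposited table are not whole, although all 7440 values of its 620 probes are. The authors' deposited signal table equals those counts times 1 factor per lane (0.586 to 1.55), within 0.000642%. How the factors were set is not stated in the labels.

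Counts of the 566 mouse miRNA probes were rounded, which changed no value, and filtered as described above. They were fitted in edgeR 4.0.16 (R 4.3.3) with TMM scaling, quasi-likelihood and 4 group means over all 12 libraries, leaving 8 residual degrees of freedom. Tests were two-sided, with Benjamini-Hochberg adjustment over 195 miRNAs and a threshold of 0.05. CPM used TMM library sizes. limma 3.58.1 and DESeq2 1.42.0 served as alternatives. The fit was also run on simulated counts. These had the same dispersion in every group and no trend over lanes, so that run does not bear on such features of the data.

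Groups and replicate numbers came from the labels. Same-numbered vehicle and insulin libraries deviated together at 24 h (r = 0.588, 0.502 and 0.306 over tested miRNAs) but not in every pair at 4 h (0.494, -0.305 and 0.739). Over all 18 same-numbered pairs, which include pairs across the times, the median r was 0.0332. The numbers come from the labels. The fit had no block, and a block per time and number was added as an alternative for insulin. Counts of replicates differed beyond sampling noise. The named miRNAs are the members, the cluster neighbours and the 5 most alike by each measure. Members and lists were chosen with earlier results of these data known.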

Additional observations from a re-analysis of the deposited data

How the results depend on the processing

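Leaving out both replicate 1 libraries of 4 h, lane as a linear covariate and a replicate block within each time were tried after seeing the data, and the last of these changed no call. For the time comparisons the lane covariate cannot separate lane from time, because the times lay in separate blocks of lanes. The alternatives moved no member past the threshold in any insulin comparison. For 24 h against 4 h averaged over treatments, 0 members were called with positive-control or housekeeping scaling, no filter, without both replicate 1 libraries of 4 h, or with lane as a covariate, 5 with a replicate block (let-7a, let-7c and let-7g added), and 0 to 5 when single libraries were left out. In vehicle 1 member (let-7e) was called when scaled on the top 100 miRNAs, at a mean count of at least 100 or DESeq2, and 0 to 1 without single libraries. In insulin 1 member (let-7d) was called with the top 100, DESeq2 or the replicate block, and 0 to 2 without single libraries. The block changed no other call. The members' median for time was -0.16 averaged, -0.19 in vehicle and -0.027 in insulin with the lane covariate, and in insulin also 0.072 with housekeeping scaling and 0.12 without both replicate 1 libraries. Without single libraries it was 0.35 to 0.92 in vehicle and 0.19 to 0.89 in insulin. The summed level with insulin at 24 h was 169331 CPM with housekeeping scaling. The causes were not tested.

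Signs turned as follows. Insulin at 4 h: let-7d was -0.025 with the top 100, -0.0087 with positive controls, -0.033 with limma on the authors' signals and -0.050 with lane. Without a filter let-7i was 0.063 and miR-98 0.057, and without both replicate 1 libraries let-7b was 0.085, let-7i 0.14 and miR-98 0.26. Insulin at 24 h: let-7c was -0.049 with RLE, -0.079 with the top 100, -0.10 with positive controls, -0.00064 with background subtracted, -0.050 without a filter, -0.099 at a mean count of 100, -0.049 with DESeq2, -0.073 with limma, -0.013 without both replicate 1 libraries and -0.14 with lane. let-7b was -0.043 with the top 100, -0.081 with positive controls, -0.0098 without a filter, -0.070 at a mean count of 100, -0.00015 with DESeq2 and -0.059 with limma. let-7i was -0.038 with positive controls, -0.023 at a mean count of 100 and -0.0071 with limma, and let-7e -0.00076 at a mean count of 100. With housekeeping scaling let-7a was -0.19, let-7b -0.31, let-7c -0.36, let-7d -0.061, let-7e -0.26, let-7f -0.18, let-7g -0.23 and let-7i -0.27. Difference of responses: let-7b was -0.18, let-7d -0.11 and let-7i -0.22 with housekeeping, let-7g 0.015 with background subtracted and 0.0039 with the replicate block, let-7i -0.030 without a filter, and let-7b -0.050 and let-7i -0.061 without both replicate 1 libraries. Time with lane as a covariate, averaged: let-7a -0.32, let-7c -0.49, let-7d -0.065, let-7f -0.16, let-7g -0.19 and miR-98 -0.24. In vehicle: let-7a -0.23, let-7c -0.32, let-7d -0.21, let-7f -0.13, let-7g -0.19 and miR-98 -0.51. In insulin: let-7a -0.41, let-7b 0.0037, let-7c -0.67, let-7f -0.20 and let-7g -0.19, and under other settings let-7c -0.13 and let-7f -0.093 with housekeeping, let-7i 0.036 with background subtracted and let-7f -0.021 without both replicate 1 libraries.

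Leaving out single libraries turned the sign of some members. For insulin at 4 h the ranges were -0.075 to 1.07 for let-7a, -0.21 to 0.017 for let-7b, -0.085 to 0.28 for let-7d, -0.069 to 0.70 for let-7f, -0.14 to 0.62 for let-7g, -0.16 to 0.19 for let-7i and -0.23 to 0.20 for miR-98. For insulin at 24 h they were -0.013 to 0.35 for let-7a, -0.16 to 0.26 for let-7b, -0.084 to 0.13 for let-7c, -0.011 to 0.26 for let-7e, -0.073 to 0.31 for let-7f and -0.12 to 0.27 for let-7i. For the difference of responses they were -0.91 to 0.24 for let-7a, -0.049 to 0.37 for let-7b, -0.36 to 0.11 for let-7e, -0.54 to 0.23 for let-7f, -0.48 to 0.28 for let-7g and -0.10 to 0.29 for let-7i. For time, let-7i ran from -0.24 to 0.031 in vehicle, -0.23 to 0.16 in insulin and -0.18 to 0.019 averaged. Counts of 430 or more for every member limit the values less than the spread between libraries of a group does.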
